A study of Mus musculus with 18 samples.

Results

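The muscle ankyrin repeat proteins are a family of 3 genes, Ankrd1, Ankrd2 and Ankrd23, and all 3 were found by symbol among the 49315 genes counted. They were followed by RNA sequencing of left ventricular mid wall from males of the 129SVE background, in 18 libraries and 6 groups of 3: WT at 3, 6 and 10 weeks of age, and MLP KO at 3, 6 and 10 weeks. MLP, the muscle LIM protein encoded by Csrp3, sits at the Z-disc of cardiomyocytes, and its loss in mice is used as a model of dilated cardiomyopathy. The study asked how expression shifts as the disease advances. The labels do not say which part of Csrp3 is altered, and they do not say that each library is a separate animal, so p-values measure only the spread between these libraries, which may be technical.

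Each member of the family carries a row of ankyrin repeats and binds the elastic I-band region of titin, the giant spring of the sarcomere, where myopalladin and the protease calpain-3 also bind. The proteins are found both at the sarcomere and in the nucleus, and are commonly described as links between stretch and transcription. Ankrd1 encodes the cardiac ankyrin repeat protein, abundant in the foetal heart and known to be induced in stressed ventricle. Ankrd2 is chiefly a gene of slow skeletal muscle, and Ankrd23 encodes the diabetes-related ankyrin repeat protein of heart and skeletal muscle.

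The genes lie at 3 places on GRCm38. In the coordinates of the count tables, Ankrd1 (ENSMUSG00000024803) covers 36111965 to 36119844 on the minus strand of chromosome 19, with 1765 exonic bases. Ankrd2 (ENSMUSG00000025172) lies on the plus strand of the same chromosome, from 42036038 to 42045110, with 1100 exonic bases. Ankrd23 (ENSMUSG00000067653) lies on the minus strand of chromosome 1, from 36530188 to 36536883, with 2697 exonic bases. The transcripts of the members have little sequence in common: the longest exact stretch shared by Ankrd2 and Ankrd23 is 26 bases, against 14 for Ankrd1 and Ankrd23 and 11 for Ankrd1 and Ankrd2. Ankrd23 has another limit. The predicted gene Gm42417 (ENSMUSG00000109510) on the same strand shares 2109 of its exonic bases (78.2%), which leaves 588 of its own. Gm42417 held 0 to 5 counts in each library, and how reads on shared exons were assigned is not given in the sources used here, so the level of Ankrd23 per kilobase is uncertain, whereas its comparison between groups uses the same bases in each group.

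Sequence before the start sites is shown because these genes are compared as a family below, and a reader may want to see whether their start regions resemble each other. The 250 bases before each RefSeq start (GRCm38.p6, 1 window each for Ankrd1 and Ankrd2 and 2 for Ankrd23, which has 2 starts) were searched on both strands. All 250 bases of the Ankrd1 window and of the outer Ankrd23 window lie in an exon of GENCODE M21, which begins these genes further upstream, at 36120099 and 36536883, so those windows are promoter sequence only by the RefSeq start. The M-CAT element, CATTCC, is the site bound by TEAD factors, the partners of YAP. It occurred at 2 places before Ankrd1, beginning 210 and 123 bases before the start, and at 1 place before the inner start of Ankrd23, at 120 bases. Ankrd2 had none in its window. Of 32851 windows of the same length, 12.6% held this element. The 2 sites of Ankrd1 read on the strand of the gene, with the element in capitals as its reverse complement, and the window of Ankrd23 with its element in capitals are:
Ankrd1, chr19:36120037-36120066, minus strand: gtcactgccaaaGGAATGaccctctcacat
Ankrd1, chr19:36119950-36119979, minus strand: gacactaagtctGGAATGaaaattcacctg
Ankrd23, chr1:36535740-36535989, minus strand: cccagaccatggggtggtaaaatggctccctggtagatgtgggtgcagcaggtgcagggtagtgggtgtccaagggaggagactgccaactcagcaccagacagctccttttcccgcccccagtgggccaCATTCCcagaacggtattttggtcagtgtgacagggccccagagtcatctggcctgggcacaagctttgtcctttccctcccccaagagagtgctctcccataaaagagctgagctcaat

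The window before Ankrd2 instead held 3 E-boxes, CANNTG, the element bound by MyoD and its relatives in skeletal muscle, beginning 140, 127 and 96 bases before the start. E-boxes are common: 66.2% of all windows had at least 1, as did those of Ankrd1 and of the inner start of Ankrd23. Ankrd2 was also the member with TATAAA, at 29 bases before its RefSeq start, which 12.4% of windows held. That match runs into the last 27 bases of the window, which lie in an exon of GENCODE M21 beginning at 42036000. GATA (53.6% of windows) was found before Ankrd1 and the outer start of Ankrd23, and AAGTG, the NKX2-5 element (40.7%), before that outer start. The MEF2 and CArG elements, in 0.508% and 1.47% of windows, were found in no window of the family, and no match overlapped another. A match is a description of the letters and not of binding. The first 223 bases of the Ankrd2 window, up to the first annotated exon, with the E-boxes in capitals, are:
Ankrd2, chr19:42035777-42035999, plus strand: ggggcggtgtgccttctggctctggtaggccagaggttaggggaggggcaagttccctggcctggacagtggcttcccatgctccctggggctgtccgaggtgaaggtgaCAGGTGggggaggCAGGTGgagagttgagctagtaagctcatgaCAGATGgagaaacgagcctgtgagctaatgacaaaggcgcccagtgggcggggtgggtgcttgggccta

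Libraries held 14980968 to 23001047 counts, and 15778 genes passed the filter on low counts, all 3 members included. CPM stands for counts after scaling to the size of each library. Fold changes are on the log2 scale with a standard error (SE), and a gene was called at an adjusted p under 0.05 in edgeR's quasi-likelihood test, adjusted over all genes tested. Csrp3, the targeted gene, was not lower in KO. It stood at 1005, 951 and 1111 CPM in the WT libraries at 3 weeks and at 1134, 2703 and 1510 in KO. At 6 weeks it was at 1486, 1230 and 1392 in WT and at 2482.9, 1821 and 1792 in KO, and at 10 weeks at 1001, 1124 and 1018 against 2777, 3416 and 1501. Every KO library was above the WT libraries of its age. The share of all genes whose KO and WT libraries separate likewise was not counted, here or for the members below. The increase passed the test at 10 weeks (log2 1.29, SE 0.30, adjusted p = 0.0041) but not at 3 or 6 weeks (adjusted p = 0.081 and 0.19). At 3 weeks it passed without KO replicate 1 (log2 1.04, adjusted p = 0.026). Reads were counted across the gene as a whole and say nothing of the protein, so WT and KO below name the labels of the libraries. At 3 weeks the 10 markers of ventricular cardiomyocytes summed to 76053 to 91541 CPM in WT and 107448 to 110323 in KO. At 6 weeks these sums were 96431 to 108559 in WT and 96126 to 108366 in KO. At 10 weeks they were 91441 to 100832 in WT and 114596 to 131462 in KO. The KO sums thus lay above those of WT at 3 and 10 weeks, and their part in the levels of the members was not tested. Single markers did not all follow the sum: Tnni3 was at 2714 CPM or more in WT and at 2577 or less in KO. At 3 weeks 5 of the 10 markers were called higher in KO and 1 lower, at 6 weeks 2 and 3, and at 10 weeks 3 and 1. Of all genes, 8.65%, 11% and 14.6% were called higher and 6.68%, 12.8% and 14.7% lower at these ages. None of the 10 markers was near 0 in any library. Atrial markers stood apart in 3 KO libraries, 1 at each age: Myl4, the atrial light chain, was at 118 CPM in KO replicate 3 at 3 weeks, 436 in KO replicate 3 at 6 weeks and 1145 in KO replicate 1 at 10 weeks, and at 23.2 or less in the other 15. Summed over 7 atrial markers, WT libraries reached 33.4 to 106 CPM and KO libraries 37.7 to 347, 74.5 to 1078 and 78.0 to 2931 at 3, 6 and 10 weeks. Bmp10, an atrial growth factor, was at 0 in all 9 KO libraries.

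Ankrd1 was higher in KO at every age. In WT it was measured at 328, 366 and 405 CPM at 3 weeks, 536, 832 and 539 at 6 weeks, and 719, 937 and 523 at 10 weeks. In KO it was at 803, 3215 and 3686 CPM at 3 weeks, 9319, 6592 and 6987 at 6 weeks, and 12446, 15334 and 8179 at 10 weeks. No KO library overlapped the WT libraries of its age, but KO replicate 1 at 3 weeks lay well below the other two of its group and below the highest WT library at 10 weeks. As a share of all counts of a library, Ankrd1 took 0.0351% in the lowest WT library and 1.30% in the highest KO library.

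At 3, 6 and 10 weeks the mean of Ankrd1 was 366 ± 38.5, 636 ± 170 and 726 ± 207 CPM in the WT groups (SD, n = 3). The KO means were 2568 ± 1547, 7633 ± 1474 and 11987 ± 3599 CPM, which makes ratios of 7.02, 12 and 16.5. The fitted increase was 2.81 on the log2 scale at 3 weeks (SE 0.47, adjusted p = 0.0014), 3.59 at 6 weeks (SE 0.48, adjusted p = 0.00013) and 4.05 at 10 weeks (SE 0.50, adjusted p = 4.6e-05). By size of increase Ankrd1 ranked 93, 83 and 98 of the 15778 genes at those ages. The increase passed the test with any 1 library of the compared groups left out, 6 of 6 times at each age, with adjusted p of at most 0.012. Without the 3 libraries rich in Myl4 it was 2.45, 3.65 and 4.04, with adjusted p of 0.012, 0.00097 and 0.00040. In a fit of only the 6 libraries of 3 weeks the call was lost, with adjusted p = 0.057 for a log2 increase of 2.79.

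**Figure D1:**
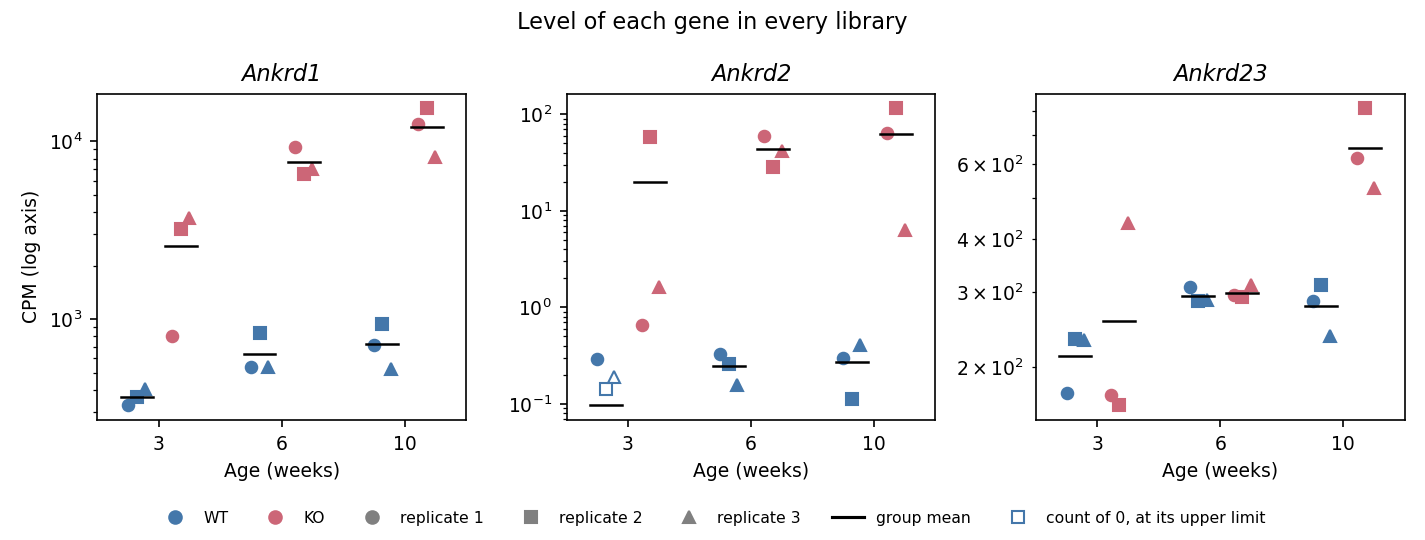
Level of Ankrd1, Ankrd2 and Ankrd23 in each of the 18 libraries, in CPM on a log axis whose range differs between panels, by age in weeks; symbols stand for replicates, colours for WT and KO, and bars for the group means of 3 libraries. Ankrd1 and Ankrd2 lie above WT in every KO library of the same age, while Ankrd23 does so at 10 weeks. The share of all genes that separate likewise was not counted. Open symbols mark the 2 libraries with a count of 0, drawn at the upper limit that a count of 0 allows.

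Ankrd2 was close to absent in WT and reached a low to moderate level in KO. Over the 9 WT libraries it drew 36 counts in all. They were 6, 0 and 0 counts at 3 weeks (0.291, 0 and 0 CPM, where a count of 0 allows up to 0.142 and 0.190 CPM, counting error only), then 0.330, 0.256 and 0.157 CPM at 6 weeks and 0.296, 0.112 and 0.407 at 10 weeks. Over the 9 KO libraries it drew 6362 counts. The KO levels were 0.656, 57.8 and 1.64 CPM at 3 weeks (15, 1031 and 35 counts), 60.0, 28.7 and 41.2 at 6 weeks, and 63.7, 115 and 6.36 at 10 weeks (908, 1907 and 109 counts). The lowest KO library was above the highest WT library, 0.656 against 0.407 CPM. At 3 weeks this separation was one of 15 counts against 6, and the share of all genes that separate likewise was not counted. Moreover, 3 KO libraries stood far below the other 6: replicates 1 and 3 at 3 weeks and replicate 3 at 10 weeks.

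The mean of Ankrd2 was 0.0971 ± 0.168, 0.248 ± 0.0865 and 0.272 ± 0.149 CPM in WT and 20.02 ± 32.7, 43.3 ± 15.8 and 61.8 ± 54.5 in KO (SD, n = 3), ratios of 206, 175 and 228 over a WT level of a few counts. The fitted increase was 7.48 at 3 weeks (SE 2.23, adjusted p = 0.040), 7.41 at 6 weeks (SE 1.90, adjusted p = 0.013) and 7.80 at 10 weeks (SE 1.89, adjusted p = 0.0079) on the log2 scale. Ankrd2 thus ranked 8, 7 and 10 of 15778 by size of increase. At 3 weeks the call rested on single libraries. It was lost without KO replicate 2 (log2 3.37, adjusted p = 0.35) and without WT replicate 1, 2 or 3 (adjusted p = 0.14, 0.13 and 0.094), and in a fit of the 6 libraries of that age alone (log2 7.47, adjusted p = 0.22). At 6 weeks it was lost by a narrow margin without WT replicate 1 or 3 (adjusted p = 0.052 for each), and at 10 weeks it held 6 of 6 times, with adjusted p of at most 0.035.

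Ankrd23 was not called at 3 or 6 weeks and rose at 10 weeks. Its WT libraries were at 174, 232 and 232 CPM at 3 weeks, 308, 285 and 287 at 6 weeks, and 285, 312 and 236 at 10 weeks. Its KO libraries were at 172, 162 and 436 CPM at 3 weeks, 294, 291 and 311 at 6 weeks, and 619, 811 and 528 at 10 weeks. At 3 weeks 2 KO libraries lay just below the lowest WT library and replicate 3, the library rich in Myl4, lay above the highest. At 6 weeks the 6 libraries were interleaved within a narrow range, and at 10 weeks every KO library was above every WT library of any age.

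The means of Ankrd23 were 213 ± 33.5, 294 ± 12.7 and 278 ± 38.6 CPM in WT and 257 ± 155, 299 ± 10.4 and 652 ± 144 in KO (SD, n = 3). The fitted difference was 0.27 (SE 0.29, adjusted p = 0.59) and 0.03 (SE 0.29, adjusted p = 0.97) at 3 and 6 weeks, and 1.23 (SE 0.30, adjusted p = 0.0061) at 10 weeks, a ratio of means of 2.35. The 10-week call held with each of the 6 libraries left out, with adjusted p of at most 0.033. At 3 weeks the sign depended on 1 library: without KO replicate 3 the difference was -0.34 (adjusted p = 0.16). The part of the atrial transcripts in that library's Ankrd23 level was not tested. At 10 weeks the increase was 1.30 without KO replicate 1, the library rich in Myl4 at that age, and the other 2 such libraries.

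Read against all genes tested, 2 of the 3 members were called higher at 3 weeks, where 15.3% of genes were called, 8.65% higher and 6.68% lower. At 6 weeks 2 members were called higher, where 23.8% of genes were called, 11% higher and 12.8% lower. At 10 weeks all 3 were called higher, where 29.3% of genes were called, 14.6% higher and 14.7% lower. The median log2 difference of all genes was 0.00, 0.00 and -0.03. In whole tissue, a larger number of expressing cells and more RNA per cell cannot be told apart. The 18 markers of skeletal muscle, where Ankrd2 is chiefly found, summed to 47.4 to 100 CPM in WT and 69.8 to 108 in KO, mostly Mybpc2 and Tnnt1. Of the 8 that passed the filter, 2 were called higher and 0 lower in KO at 3 weeks, 2 and 1 at 6 weeks, and 3 and 0 at 10 weeks. The median log2 difference of those 8 was -0.17, 0.03 and 0.28 at 3, 6 and 10 weeks. Tnni1, the slow skeletal troponin I, ran from 0.168 to 0.542 CPM in WT and from 0.702 to 4.26 in KO. Myh8, a perinatal myosin, had a median of 0 in WT and 0.560 in KO. Tnni2, Mylpf and Atp2a1 went the other way, with medians of 1.85, 1.18 and 0.825 CPM in WT and 0.653, 0.846 and 0.518 in KO. Myh4, a fast myosin, was at 0 in 9 of 9 WT and 6 of 9 KO libraries, and Myod1 at 0 in 8 of 9 of each. The part of these transcripts in the Ankrd2 level was not tested.

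**Figure D2:**
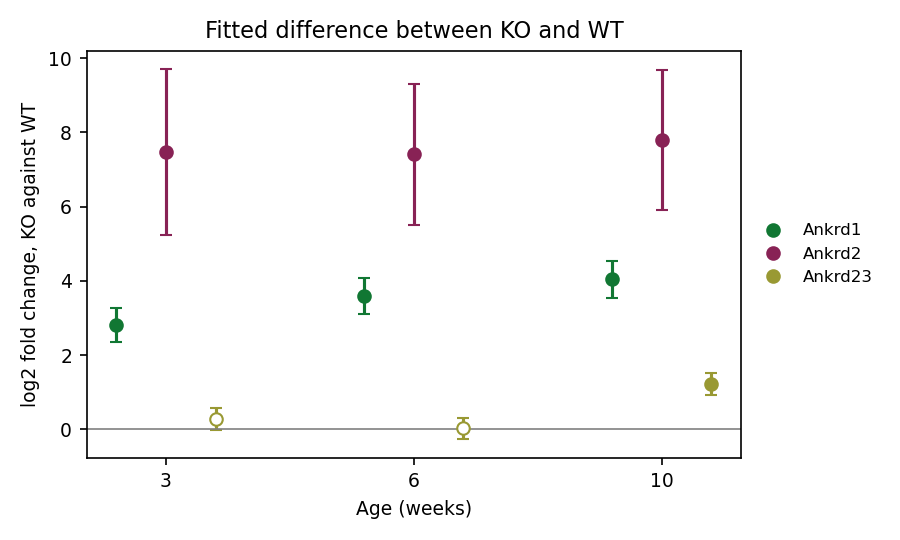
Fitted log2 fold change of KO against WT for Ankrd1, Ankrd2 and Ankrd23 at 3, 6 and 10 weeks, with bars of 1 SE; filled points passed an adjusted p of 0.05 and open points did not. Ankrd2 has the widest bars (SE 1.89 to 2.23), and Ankrd23 leaves the zero line at 10 weeks (1.23).

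Ages were then compared within each genotype. In WT, no member was called between any pair of ages, where 5.18% of all genes were called from 3 to 6 weeks, 8.77% from 6 to 10 weeks and 16.5% from 3 to 10 weeks. The WT log2 difference from 3 to 10 weeks was 0.99 for Ankrd1 (adjusted p = 0.15) and 0.39 for Ankrd23 (adjusted p = 0.42), and the WT counts of Ankrd2 were too low to show a change. In KO, Ankrd1 rose by 1.57 from 3 to 6 weeks (adjusted p = 0.039) and by 2.22 from 3 to 10 weeks (adjusted p = 0.0040), while the step from 6 to 10 weeks was 0.65 (adjusted p = 0.37). Of all genes, 5.34%, 9.8% and 6.52% were called higher in those 3 comparisons in KO. The call from 3 to 6 weeks held 2 of 6 times when 1 library was left out and was lost without KO replicate 2 at 3 weeks (adjusted p = 0.062) or any of the 3 KO libraries at 6 weeks (adjusted p = 0.069 to 0.12), whereas the call from 3 to 10 weeks held 6 of 6 times.

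In KO, Ankrd23 differed from 3 to 6 weeks by 0.22 (adjusted p = 0.71), and rose from 6 to 10 weeks by 1.13 (SE 0.30, adjusted p = 0.023), a call that was lost without any of the KO libraries at 6 weeks (adjusted p = 0.065 to 0.087) or KO replicate 2 at 10 weeks (0.095). From 3 to 10 weeks it rose by 1.35 (SE 0.30, adjusted p = 0.0054), which held 6 of 6 times. Ankrd2 was not called between ages in KO, with differences of 1.13, 0.51 and 1.65 for 6 against 3, 10 against 6 and 10 against 3 weeks (adjusted p = 0.60, 0.82 and 0.36). Without KO replicate 2 at 3 weeks, the library at 57.8 CPM, those from 3 weeks became 5.24 and 5.75 and passed (adjusted p = 0.012 and 0.0048).

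Whether the difference between genotypes itself changed with age was tested as an interaction, and no member was called, where 1.59%, 5.75% and 5.76% of all genes were called for 6 against 3, 10 against 6 and 10 against 3 weeks. For Ankrd1 the difference grew by 0.77, 0.46 and 1.23 on the log2 scale (adjusted p = 0.60, 0.72 and 0.30). For Ankrd23 it changed by -0.25, 1.21 and 0.96 (adjusted p = 0.83, 0.11 and 0.21). A call at 1 age and none at another is therefore not shown to be a difference between ages. For Ankrd23 the call depended on the libraries used: without KO replicate 3 at 3 weeks the growth from 3 to 10 weeks was 1.58 (adjusted p = 0.00014), and without all 3 libraries rich in Myl4 it was 1.65 (adjusted p = 0.00026) and that from 6 to 10 weeks was 1.29 (adjusted p = 0.0025).

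Ordered by group mean, Ankrd1 ran from WT at 3, 6 and 10 weeks to KO at 3, 6 and 10 weeks. The WT groups at 6 and 10 weeks overlapped, as did KO at 6 and 10 weeks, and KO at 3 weeks overlapped WT at 6 and at 10 weeks through its replicate 1. For Ankrd2 all 3 KO groups overlapped each other and lay above all WT groups. For Ankrd23 only KO at 10 weeks stood clear of the rest, its lowest library at 528 CPM against 436 for the highest of the other 15.

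The spread between KO libraries was itself uneven across ages and members. The highest KO library at 3 weeks exceeded the lowest 4.59-fold for Ankrd1, 88.0-fold for Ankrd2 and 2.68-fold for Ankrd23. At 6 weeks these ratios were 1.41, 2.09 and 1.07, and at 10 weeks they were 1.87, 18.1 and 1.54. On log2 CPM the SD between KO libraries at 3 weeks was 1.22 for Ankrd1, 3.32 for Ankrd2 and 0.80 for Ankrd23, beside a median of 0.22 over all genes tested, and placed Ankrd2 at rank 3, Ankrd1 at 121 and Ankrd23 at 739 of 15778. At 6 weeks the SDs were 0.27, 0.53 and 0.05 (median 0.16), and at 10 weeks 0.46, 2.20 and 0.31 (median 0.25). Between WT libraries they were 0.15, 1.10 and 0.24 at 3 weeks, with Ankrd2 at a few counts. They were 0.36, 0.37 and 0.06 at 6 weeks and 0.42, 0.64 and 0.21 at 10 weeks in WT. The SDs of Ankrd1 and Ankrd23 at 6 weeks were thus not larger in KO than in WT. The members did not put the KO libraries of 3 weeks in the same order: replicate 1 was lowest for Ankrd1 and Ankrd2, replicate 2 was highest for Ankrd2 and lowest for Ankrd23, and replicate 3 was highest for Ankrd1 and Ankrd23. At 10 weeks they did, with replicate 2 highest and replicate 3 lowest for each gene. Over all groups, the fitted biological coefficient of variation was 36.6% for Ankrd1, 115% for Ankrd2 and 25.0% for Ankrd23.

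**Figure D3:**
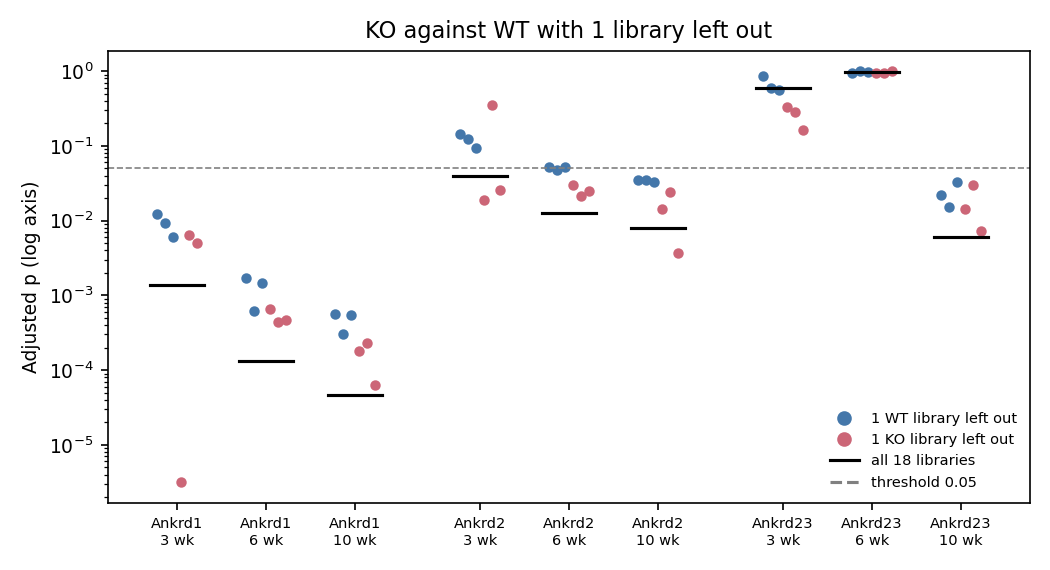
Adjusted p (log axis) of KO against WT for each member and age with 1 library of the compared groups left out at a time, coloured by its genotype, with bars for the fit of all 18 libraries and a dashed line at 0.05. All points of Ankrd1 lie under the line, while those of Ankrd2 cross it at 3 and 6 weeks.

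Levels can be compared between genes only per kilobase of exon. On the exon lengths in the files the family summed to 286 ± 33, 469 ± 93.7 and 515 ± 131 CPM per kilobase in WT at 3, 6 and 10 weeks (SD, n = 3). In KO the sum was 1568 ± 922, 4475 ± 848 and 7089 ± 2140. Ankrd1 made up 72.5%, 76.1% and 79.5% of that level in WT and 91.5%, 96.6% and 95.8% in KO. Ankrd23 made up 27.5%, 23.8% and 20.4% in WT and 7.53%, 2.53% and 3.49% in KO, and Ankrd2 never exceeded a mean of 0.965%. Despite the largest fold change of the family, Ankrd2 thus added least to its summed RNA. The order of the other two in WT depends on the length used. With Ankrd23 counted over its 588 unshared bases, Ankrd1 held 36.6%, 41.5% and 46.0% of the WT level and Ankrd23 63.4%, 58.5% and 53.9%, while in KO Ankrd1 still held 73.1%, 88.6% and 85.2%.

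**Figure D4:**
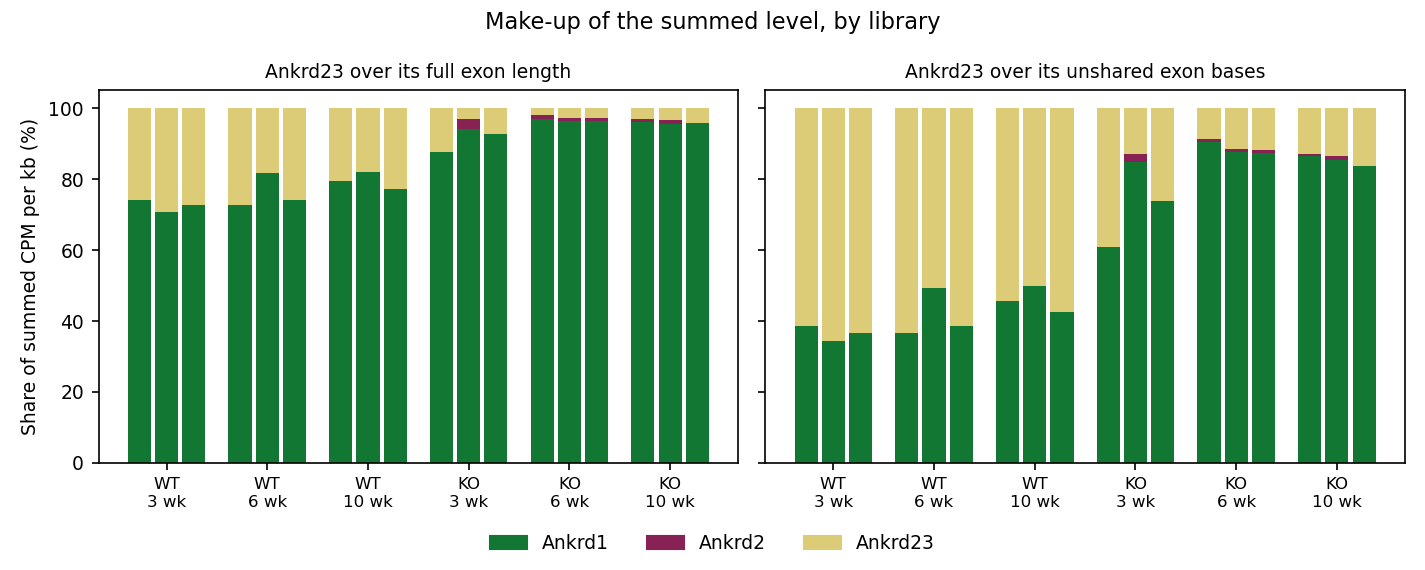
Share of the summed CPM per kilobase held by Ankrd1, Ankrd2 and Ankrd23 in each of the 18 libraries, with Ankrd23 scaled to its full exon length of 2697 bases on the left and to its 588 unshared bases on the right; the 3 bars of a group are its replicates 1 to 3. The Ankrd1 share is larger in the KO groups in both panels, and Ankrd2 is visible as a thin band in KO.

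Across the 18 libraries the members were related to each other to different degrees, which is given as a description since the libraries share their groups. Pearson's r of log2 CPM was 0.93 between Ankrd1 and Ankrd2, 0.68 between Ankrd1 and Ankrd23 and 0.46 between Ankrd2 and Ankrd23. After subtracting the group means it was 0.51, 0.56 and -0.20. With Csrp3 it was 0.92 for Ankrd2, 0.86 for Ankrd1 and 0.54 for Ankrd23, and 0.87, 0.65 and 0.08 after subtracting the group means. In the 9 WT libraries alone r with Csrp3 was 0.23 for Ankrd2, 0.29 for Ankrd1 and 0.60 for Ankrd23. Over the 9 KO libraries alone r between Ankrd2 and Csrp3 was 0.905, and the KO library with most Ankrd2 at 3 weeks and the one at 10 weeks were also those with most Csrp3 (2703 and 3416 CPM).

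The 5 genes with the highest Pearson's r to Ankrd2 over the 18 libraries were Fhl1 (r = 0.959), Xirp2 (0.954), Ces5a (0.954), Cct8 (0.947) and Atp1b4 (0.947). They stood among 67 genes at r above 0.9. By Spearman's rho, which uses ranks, the same 5 placed 446, 60, 215, 5 and 665 of 15777 genes. Fhl1 encodes a LIM protein that binds titin, and Xirp2 an actin-binding protein of the intercalated disc. The genes were picked for likeness to Ankrd2 in these same libraries, so a shared pattern is part of the choice. Fhl1 followed the uneven KO libraries. It stood at 585, 2721 and 789 CPM in KO at 3 weeks, where Ankrd2 was high in replicate 2 alone. At 10 weeks it was at 2862, 3870 and 918, where Ankrd2 was low in replicate 3. In WT Fhl1 ran from 114 to 138 CPM. Ces5a, a carboxylesterase, was at 0 in 8 of 9 WT libraries and reached 9.55 CPM in KO replicate 2 at 10 weeks. With group means subtracted the nearest genes were Socs3 (r = 0.912), Rpl3 (0.896), Cct8 (0.889), Fhl1 (0.888) and Acot9 (0.886), so Fhl1 and Cct8 were named by both measures. Socs3, the inhibitor of cytokine signalling, stood at 65.9 CPM in KO replicate 2 at 3 weeks against 7.13 and 8.37 in the other two.

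**Figure D5:**
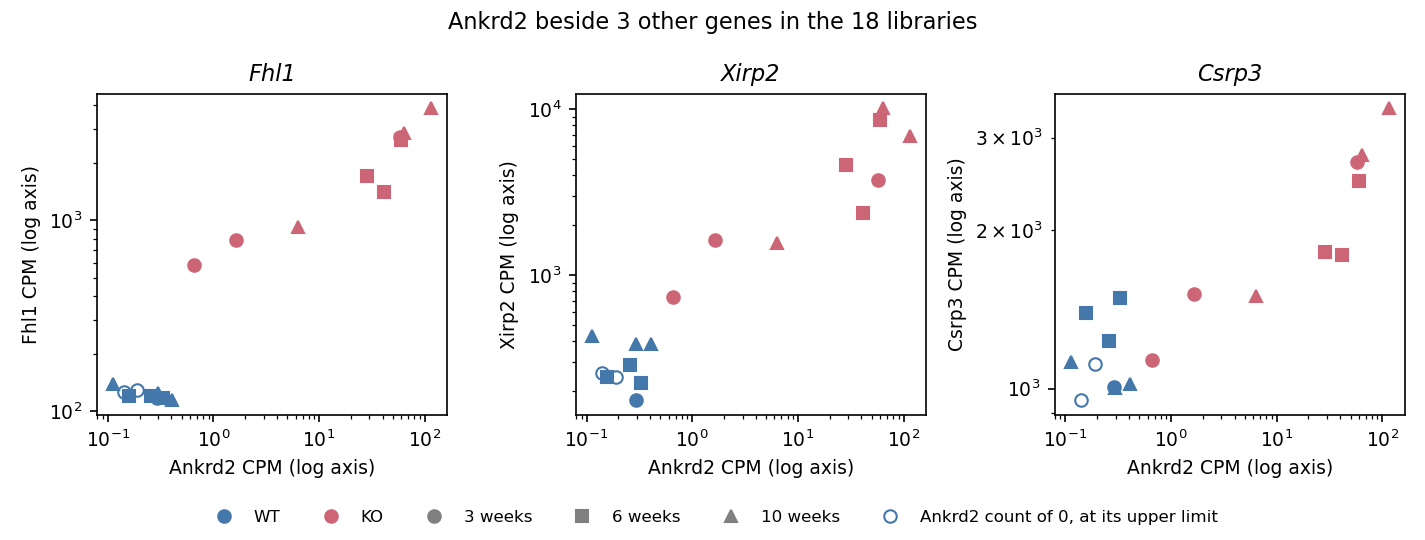
Level of Fhl1, Xirp2 and Csrp3 against that of Ankrd2 in the 18 libraries, in CPM on log axes, with symbols for age and colours for genotype; open circles are the 2 libraries without a count of Ankrd2, drawn at their upper limit. The KO libraries at 0.656, 1.64 and 6.36 CPM of Ankrd2 are also the lowest 3 KO libraries for Fhl1. Fhl1 and Xirp2 were picked for their likeness to Ankrd2 in these libraries.

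For Ankrd1 the nearest named genes were Tmbim1 (r = 0.967), Serpinb6b (0.966), Acss2 (0.964), Hspb7 (0.963) and Myl12a (0.962), within a crowd of 149 genes at r above 0.9. Hspb7, the small heat shock protein of cardiac and skeletal muscle, rose by 1.23, 1.14 and 1.57 in KO at 3, 6 and 10 weeks and was called at each age. Predicted loci were passed over, 1 here and 2 in the next measure. Once group means were subtracted none of these 5 was among the nearest 5 named genes, which were Magi3 (0.940), Akap6 (0.884), Ehbp1 (0.881), Gfpt1 (0.875) and Cdh2 (0.869). Akap6 encodes the anchor of protein kinase A at the nuclear envelope of muscle cells and Cdh2 the N-cadherin of the intercalated disc. Without subtracting group means, r with Ankrd1 was 0.007 for Magi3 and -0.30 for Ehbp1. For Akap6, Gfpt1 and Cdh2 it was 0.82, 0.88 and 0.90. Magi3 was not called at any age. In KO at 3 weeks Magi3, itself picked for its likeness to Ankrd1, stood at 29.8, 106 and 96.4 CPM, lowest in replicate 1 as was Ankrd1.

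For Ankrd23 the nearest genes were Slc35f5 (r = 0.938), Dnaja4 (0.904), Lmcd1 (0.90), Mafk (0.897) and Tnfrsf12a (0.890), and 2 genes exceeded r = 0.9. Tnfrsf12a is the receptor of the cytokine TWEAK, and Lmcd1 a LIM protein that acts with GATA factors. As these genes were picked for their likeness to Ankrd23 in these same libraries, a shared pattern is part of the choice. Lmcd1, Dnaja4 and Slc35f5 were called at 10 weeks and not at 3 or 6 weeks, as was Ankrd23. At 10 weeks Lmcd1 rose by 2.63, Dnaja4 by 1.58 and Slc35f5 by 0.68 on the log2 scale. Mafk and Tnfrsf12a were called at 10 weeks and also at 3 weeks (adjusted p = 0.042 and 0.046). Tnfrsf12a stood at 81.2, 61.0 and 210 CPM in KO at 3 weeks, high in the same replicate 3 as Ankrd23, and at 51.9, 61.8 and 72.7 at 6 weeks and 414, 526 and 215 at 10 weeks. It was also among the nearest after subtracting group means (0.901), with Hspa1l (0.926), Synpo2l (0.915), Cavin4 (0.878) and Srpk3 (0.877), a muscle kinase of splicing factors.

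Partners of the family in the titin I-band were counted from a list of 18 genes. This list and those that follow were chosen with earlier results of these data known, so their counts are a description and not a test. At 3 weeks 4 were higher and 1 lower in KO, at 6 weeks 6 and 5, and at 10 weeks 9 and 4, with a median log2 difference of 0.22, 0.24 and 0.57. Over all genes 15.3%, 23.8% and 29.3% were called in either direction at these ages. Fhl1 rose by 3.46, 4.01 and 4.34 at the 3 ages, Des (desmin, the intermediate filament around the Z-disc) by 1.08, 1.26 and 1.41, and Cryab (alpha-B crystallin, a chaperone of titin and desmin) by 1.5, 1.11 and 1.72. Mypn, the gene of myopalladin, which holds Ankrd1 at the I-band, rose by 1.36, 0.58 and 1.44. Ttn itself rose at 10 weeks by 0.73 and was at 0.30 and 0.34 earlier (adjusted p = 0.19 and 0.11). Capn3, the gene of calpain-3, was the member of the list that was lower at every age, by log2 -1.44, -0.93 and -0.58. Fhl2 and Trim55 were called lower at 6 weeks (group means of 1949 and 150 CPM in WT, 1122 and 86.1 in KO). They were also lower at 10 weeks (1574 and 118 in WT, 1120 and 91.8 in KO). Casq2 was lower at 6 weeks (1148 in WT, 913 in KO) and higher at 10 weeks (789 and 1082). Ybx1, whose protein binds Ankrd1 in the nucleus, was lower at 6 and 10 weeks (-0.60 and -0.61), and Trp53 was called at no age.

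Of 20 transcription factors and co-activators of the heart, 4 were higher and none lower at 3 weeks, 5 and 2 at 6 weeks, and 4 and 1 at 10 weeks, with medians of 0.27, 0.21 and 0.00. Beside these stand 8.65%, 11% and 14.6% of all genes called higher and 6.68%, 12.8% and 14.7% called lower, so the share of this list called at 10 weeks was no larger than that of all genes. Tead1, which binds the M-CAT element printed above, rose at each age by 0.45, 0.53 and 0.67, and its partner Yap1 rose at 6 and 10 weeks by 0.54 and 0.52. Tead3 of the same family was lower at 6 weeks (-0.45, adjusted p = 0.013), and Tead4 was called at no age. Myocd, the co-activator of SRF, rose at 3 and 10 weeks by 0.70 and 0.47. Gata4 passed at 6 weeks (0.47), and Nkx2-5 at no age. Mef2c and Mef2d were also called higher at 6 weeks (group means of 28.9 and 172 CPM in WT, 50.5 and 240 in KO). Srf and Mrtfb were called higher at 3 weeks (126 and 26.1 in WT, 187 and 41.3 in KO). Hand2 was lower at 6 weeks (89.1 in WT, 56.6 in KO) and higher at 10 weeks (74.7 and 100). Mef2a was lower at 10 weeks (169 in WT, 97.0 in KO). The part of any of these factors in the levels of the members was not tested.

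Of 20 further target genes of YAP and TEAD that were tested, 4 were higher and 2 lower at 3 weeks, 7 and 1 at 6 weeks, and 8 and 2 at 10 weeks, with medians of 0.22, 0.26 and 0.30. The shares of all genes were 8.65% higher and 6.68% lower at 3 weeks, 11% and 12.8% at 6 weeks, and 14.6% and 14.7% at 10 weeks. Tgfb2, a growth factor, rose by 2.27 at 6 weeks and 4.14 at 10 weeks, after 1.12 at 3 weeks (adjusted p = 0.22). Ccn2 (connective tissue growth factor) rose at 10 weeks by 4.84, and Ptpn14 at every age by 0.55, 0.57 and 0.76. Dock5 was lower at 3 and 10 weeks (-0.72 at both). Igfbp3 was also called lower, at 3 weeks (group means of 36.4 CPM in WT and 19.7 in KO) and at 6 weeks (33.3 and 22.8). Gadd45a was called lower at 10 weeks (19.6 CPM in WT and 7.27 in KO). Amotl2 and Lats2 were called at no age. Ankrd1, usually counted among the targets of YAP, was kept out of this list, and its increases of 2.81, 3.59 and 4.05 lay above the list's median at each age.

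Of 14 other genes known to answer stretch or stress in cardiomyocytes, 7 were higher at 3 weeks, 6 at 6 weeks and 13 at 10 weeks and none was lower, with medians of 1.52, 0.93 and 3.18, beside 8.65%, 11% and 14.6% of all genes called higher. This list was chosen with earlier results of these data known, so its counts are a description and not a test. Acta1 (skeletal alpha-actin), Nppa (atrial natriuretic peptide) and Gdf15 (a stress cytokine) were called at every age, as were Enah and Xirp2. Another group of the list, Xirp1, Rcan1, Synpo2l, Lmcd1 and Atf3, was called at 10 weeks and at neither earlier age, as was Ankrd23. Synpo2l, a Z-disc protein, was at 269, 230 and 791 CPM in KO at 3 weeks, again with replicate 3 highest, and rose by 3.33 at 10 weeks. Csrp1, the relative of Csrp3 in smooth muscle, was called at no age.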

How the data were processed

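Frozen left ventricular tissue gave 18 libraries (Qiagen RNeasy Plus Universal Mini Kit, NEBNext Ultra II RNA kit, per the labels). The tools of the authors are listed in the submitters' processing notes: Subread 1.5.2 with featureCounts, STAR 2.5.2b and Trimmomatic 0.36, on GRCm38. Strand setting, annotation release and handling of multimapping reads are not given in the sources used here. What the authors deposited were raw counts per Ensembl gene. Symbols came from GENCODE M21, which matched 49056 of 49315 identifiers, and promoters from RefSeq (GRCm38.p6). No library was a copy of another of its group (chi-square per degree of freedom 7.56 to 70.5 between replicates); pairs across groups were not compared.

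The fit used edgeR 4.0.16 in R 4.3.3: filterByExpr (minimum count 10, minimum total 15), TMM, and 1 robust quasi-likelihood fit of 6 group means to all 18 libraries, with Benjamini-Hochberg adjustment over the 15778 genes of each of 12 contrasts. The SE is the log2 fold change over the root of F. For log2 CPM the prior count was 2. Steps were tested on simulated data. Alternatives were DESeq2 1.42.0, RLE factors, no filter, a non-robust fit, single ages, no mitochondrial genes, a replicate block, each library left out, and no libraries with Myl4 above 50 CPM. Named genes were the members, Csrp3, the 5 nearest genes by each measure (predicted loci passed over), and called list members. The members, lists and other choices were made with earlier results of these data known.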

Additional observations from a re-analysis of the deposited data

How the results depend on the processing

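KO against WT kept its direction and its side of the threshold for all 3 members at all 3 ages with DESeq2, RLE factors, a non-robust fit, no mitochondrial genes and no filter. Elsewhere Ankrd1 at 3 weeks lost its call in the fit of 6 libraries of that age (2.79, adjusted p = 0.057), as did Ankrd2 (7.47, 0.22). DESeq2 called 651 and 1478 genes for the genotype effect at 6 against 3 and 10 against 6 weeks and 1325 from 3 to 6 weeks in WT, in place of 251, 908 and 818; the cause was not tested. Without a filter 29690 genes were tested and the quasi-likelihood dispersion of the members fell from 7.86 to 0.561 (Ankrd1), 44.8 to 0.731 (Ankrd2) and 3.71 to 0.614 (Ankrd23). Differences of about the same size then passed: for Ankrd1 0.77 and 1.23 as growth of the genotype effect from 3 to 6 and 3 to 10 weeks, 0.81 and 1.0 from 3 to 6 and 3 to 10 weeks in WT, and 0.65 from 6 to 10 weeks in KO; for Ankrd23 1.21 and 0.95 as growth from 6 to 10 and 3 to 10 weeks, and 0.48 and 0.40 in WT from 3 to 6 and 3 to 10 weeks; for Ankrd2 1.14, 0.52 and 1.66 in KO for 6 against 3, 10 against 6 and 10 against 3 weeks. Counts were then 880, 1550 and 1479 for the 3 interactions and 1404 from 3 to 6 weeks in WT.

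The replicate numbers are shared between groups. WT and KO samples of one age with the same number did not deviate together over all genes. Their r ran from -0.084 to 0.085 over the 9 pairs, and 3 of 9 were best with their own number. Numbers were not compared across ages, and a link in part of the genes could go unseen. The check therefore cannot tell whether samples with one number share a batch. With the replicate block Ankrd2 at 3 weeks was 6.93 (adjusted p = 0.058), and uncalled Ankrd2 differences changed sign, to 1.37 and -0.72 for the genotype effect at 6 against 3 and 10 against 6 weeks and to -0.45 from 6 to 10 weeks in KO; it changed no other call of a member.

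Without the 3 libraries with Myl4 above 50 CPM, uncalled differences changed sign for Ankrd23 at 3 weeks (-0.35) and for the genotype effect of Ankrd23 at 6 against 3 weeks (0.36) and of Ankrd2 at 10 against 3 weeks (-0.21). Ankrd23 now passed for 10 against 6 weeks (1.29), 10 against 3 weeks (1.65) and 6 against 3 weeks in KO (0.81), and Ankrd1 from 3 to 6 weeks in KO no longer did (1.99, adjusted p = 0.083). Counts were 160 for the genotype effect at 6 against 3 weeks and 1099 and 1241 from 3 to 6 and 6 to 10 weeks in KO, with fewer libraries. Spearman's rho of the nearest genes was 0.979 (Tmbim1), 0.775 (Fhl1) and 0.808 (Slc35f5).

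With 1 library left out, ranges that crossed the threshold or 0 were, for KO against WT, 3.37 to 11.5 (Ankrd2, 3 weeks), 7.12 to 7.64 (Ankrd2, 6 weeks), -0.34 to 0.52 (Ankrd23, 3 weeks) and -0.0039 to 0.068 (Ankrd23, 6 weeks). For the genotype effect they were -4.12 to 4.04, -0.43 to 0.94 and -3.73 to 4.43 (Ankrd2, 6 against 3, 10 against 6, 10 against 3 weeks), and -0.49 to 0.37 and 0.71 to 1.58 (Ankrd23, 6 against 3 and 10 against 3 weeks). In KO they were 1.15 to 1.93 (Ankrd1, 3 to 6 weeks), 0.55 to 5.24, -0.29 to 1.08 and 0.85 to 5.75 (Ankrd2, 6 against 3, 10 against 6, 10 against 3 weeks), and -0.026 to 0.84 and 0.96 to 1.28 (Ankrd23, 6 against 3 and 10 against 6 weeks). In WT, from 6 to 10 weeks, they were -0.035 to 0.43 (Ankrd1), -0.22 to 0.48 (Ankrd2) and -0.17 to 0.036 (Ankrd23). Counts of called genes ran from 1309 to 2542 for KO against WT at 3 weeks (1309 and 1593 without WT replicate 1 or 2, against 2419), and from 84 to 426, 460 to 1598 and 552 to 1497 for the genotype effect at 6 against 3, 10 against 6 and 10 against 3 weeks. They ran from 199 to 1313, 555 to 1185 and 1462 to 2743 in WT and from 1089 to 1620, 983 to 2634 and 2230 to 3319 in KO for the same pairs of ages. Depth limits Ankrd2 in WT, where 7 counts were the most in any library.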
